A study of Mus musculus with 24 samples.

Results

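The transcripts of 44 metalloprotease and inhibitor genes were followed in the mouse aorta after a passing infusion of angiotensin II (Ang II), a peptide that narrows arteries. They were the genes of the count table, 44 of 37606, whose symbol is Mmp, Adamts, Adamtsl or Timp followed by a number, which the deposited comparison tables class as protein coding, and which held at least 20 raw counts over 24 libraries. There were 17 Mmp, 18 Adamts, 5 Adamtsl and 4 Timp genes, and the lowest total among them was 84 counts, for Mmp21. Adamts18, Mmp8, Mmp7 and Mmp10 held 58, 46, 19 and 1 counts in all and were not in those comparison tables, so they were left out. The rule itself used names, gene class and total counts and no difference between groups, but it was set with earlier results of these data known.

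Wild-type mice received Ang II or vehicle (sham) under the skin from a minipump for 2 weeks, and aortas were taken 2, 4 or 6 months later and homogenised. This gave 6 groups of 4 libraries: Ang II at 2 months, sham at 2 months, Ang II at 4 months, sham at 4 months, Ang II at 6 months and sham at 6 months. Strain, age, dose and whether each library was 1 animal are not stated in the labels, so the p-values cover only the spread among the libraries at hand, which may be technical. Levels are CPM, read counts per library size after TMM scaling (a correction for library composition). A value after ± beside a log2 fold change is its SE.

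Matrix metalloproteases (MMPs) are zinc enzymes, secreted or tied to the cell surface, that are made as inactive proenzymes and cut collagen, elastin and other matrix proteins. ADAMTS proteases are secreted enzymes that cut proteoglycans such as versican, trim procollagens or act on fibrillin microfibrils, and the ADAMTS-like proteins share their matrix-binding modules but lack the protease domain. Tissue inhibitors of metalloproteases (TIMPs) block the active site of these enzymes. In the aortic wall this balance governs turnover of the elastic lamellae and of the collagen and versican between smooth muscle cells.

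Of the members, 29 had an entry among RefSeq start-site windows (GRCm38.p6, the same assembly as mm10), each reaching from 250 bases before to 50 bases after the start. Those of Mmp14, Timp3, Timp4 and Mmp3 are shown. The first 3 genes carry differences described below. Mmp3 is 1 of the 2 members, among those with a window, that hold an AP-1 motif, the site of the Fos and Jun immediate early factors. Transcript levels of immediate early genes are given beside Adamts4. Adamts4, Mmp17 and Adamts8, which also carry differences described below, had no window, so no motif was searched for in them. Capitals mark a GC box (GGGCGG on either strand), an AP-1 site (TGANTCA) or a TATA box (TATAAA).
Mmp14, chr14:54431348-54431647, plus strand: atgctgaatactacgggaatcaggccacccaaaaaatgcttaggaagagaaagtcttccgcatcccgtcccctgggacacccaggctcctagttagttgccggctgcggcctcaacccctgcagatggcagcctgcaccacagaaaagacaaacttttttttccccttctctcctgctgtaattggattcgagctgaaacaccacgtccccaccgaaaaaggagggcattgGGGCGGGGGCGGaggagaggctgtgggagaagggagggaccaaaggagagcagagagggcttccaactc
Timp3, chr10:86300162-86300461, plus strand: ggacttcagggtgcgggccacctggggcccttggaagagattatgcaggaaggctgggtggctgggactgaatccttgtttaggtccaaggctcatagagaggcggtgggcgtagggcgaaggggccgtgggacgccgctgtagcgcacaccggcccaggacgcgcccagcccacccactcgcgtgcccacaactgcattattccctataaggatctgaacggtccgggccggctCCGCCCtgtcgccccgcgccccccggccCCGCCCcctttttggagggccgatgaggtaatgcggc
Timp4, chr6:115252156-115252455, minus strand: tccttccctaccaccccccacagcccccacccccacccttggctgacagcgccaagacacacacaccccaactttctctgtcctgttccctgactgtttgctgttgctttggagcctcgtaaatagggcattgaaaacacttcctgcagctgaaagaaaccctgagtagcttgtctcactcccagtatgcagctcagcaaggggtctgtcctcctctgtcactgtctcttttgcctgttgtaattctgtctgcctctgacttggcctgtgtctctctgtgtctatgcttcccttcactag
Mmp3, chr9:7445572-7445871, plus strand: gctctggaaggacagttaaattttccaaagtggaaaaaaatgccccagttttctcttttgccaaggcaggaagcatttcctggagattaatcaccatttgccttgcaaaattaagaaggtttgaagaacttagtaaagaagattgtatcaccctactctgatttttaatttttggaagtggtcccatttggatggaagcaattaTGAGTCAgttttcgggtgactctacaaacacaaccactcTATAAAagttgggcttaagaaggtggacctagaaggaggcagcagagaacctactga
Mmp14 held 2 GC boxes back to back, Timp3 held 2 GC boxes on the opposite strand, and Timp4 held none of the motifs searched. A GC box stood in 20 of the 29 member windows and in 35.7% of all 32851 windows. Each member gave 1 window, nearest its 5' end, whereas the share over all counts every window. Member windows ran from 38.7% GC for Mmp12 to 80% for Mmp24, against a median of 52.7% over all windows, and the part of GC content was not tested. The AP-1 site stood in 2 member windows, those of Mmp3 and Mmp13, and in 7.81% of all windows. The TATA box was found in 5 member windows and 13.6% of all windows, and the CArG box, the motif bound by serum response factor at smooth muscle genes, in 0 member windows and 1.63% of all. These matches are letters in a window, searched on both strands, and not sites of binding.

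Per kb of exon, Timp2, Timp3, Timp4 and Mmp2 were the 4 highest members in sham aortas at 2 months, whereas in Ang II aortas Timp4 stood below Mmp15 and Adamts1 (12.0 and 11.5 CPM per kb). In the order of sham aortas at 2 months, Timp2, the inhibitor that also helps membrane-bound Mmp14 to activate pro-Mmp2, averaged 85.6 CPM per kb in Ang II and 90.03 in sham aortas. Timp3, the inhibitor that binds to matrix and also blocks several ADAMTS enzymes, averaged 17.2 CPM per kb in Ang II and 25.7 in sham aortas, and Timp4, an inhibitor of fat and cardiovascular tissue, 9.85 in Ang II and 19.98 in sham aortas. Mmp2, or gelatinase A, averaged 19.6 CPM per kb in Ang II and 17.9 in sham aortas. Adamts4 averaged 0.904 CPM per kb in Ang II and 0.192 in sham aortas at 2 months, and Adamts13, the von Willebrand factor protease and lowest member in the sham group, 0.0177 in Ang II and 0.0149 in sham aortas. In sham aortas at 2 months Timp2 stood apart, whereas Timp4 and Mmp2 lay close to each other (mean 19.98 and 17.9 CPM per kb), as did Mmp15 and Mmp23 (12.2 and 12.2), within the spread of their libraries.

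**Figure D1:**
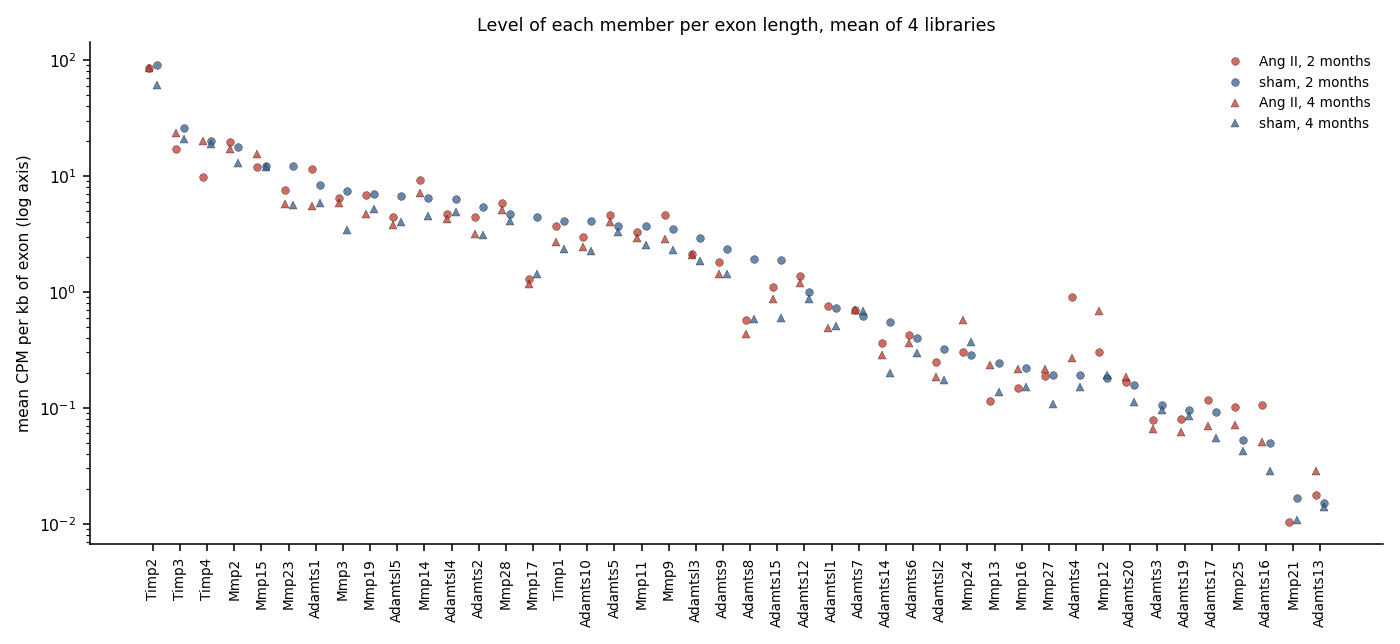
Mean level of each member in CPM per kb of exon (log axis; mean of 4 libraries) at 2 months (circles) and 4 months (triangles), Ang II in red and sham in blue, ordered by sham at 2 months. Timp2 is highest in all 4 groups, and the Ang II circle of Adamts4 lies far above its sham circle. Mmp21 in Ang II aortas at 4 months, listed at 0, is not drawn.

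Library totals lay between 19380262 and 35130912 counts at 2 months, between 19163673 and 24900764 at 4 months, and between 37639960 and 58676098 at 6 months. Mitochondrial transcripts took 7.72% to 14.28%, 10.07% to 16.32% and 31.75% to 59.31% of them, and the ranges of depth and mitochondrial share at 6 months lay above those of both earlier times. The libraries of 6 months were scaled on their own, and their CPM are not set against earlier times. The homogenates were rich in fat: 10 of 10 adipocyte markers were present and summed to 21040 to 32680 CPM in Ang II and 20590 to 26150 CPM in sham aortas at 2 months. Airway epithelium markers summed to 1630 to 9899 CPM in 3 libraries at 2 months (Ang II replicates 1 and 2, sham replicate 3) and 2.65 to 808 CPM in the other 5. At 4 months they summed to 1736 to 6673 CPM in 3 libraries (Ang II replicates 2 and 4, sham replicate 2) and 6.81 to 350.5 CPM in the other 5, and at 6 months to 44.99 to 4339 CPM. An alternative left these airway-rich libraries out, and it is given beside the calls of members that it ends. Skeletal muscle markers (8 of 8 present) summed to 59.65 to 7905 CPM in Ang II and 77.25 to 3343 CPM in sham aortas at 2 months. At 4 months they summed to 315.8 to 4389 CPM in Ang II and 123.9 to 12630 CPM in sham aortas. In bulk tissue, fewer cells of a type and less RNA per cell cannot be told apart.

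The comparison at 2 months asks which members still differed long after the infusion had ended. Adamts4, a secreted protease that cleaves the proteoglycans aggrecan and versican, was 4.71-fold higher in Ang II aortas, while the membrane-type protease gene Mmp17 was 3.39-fold lower, the protease gene Adamts8 3.33-fold lower and the inhibitor gene Timp3 1.49-fold lower. These 4 of 41 members tested passed the quasi-likelihood test of edgeR (Benjamini-Hochberg adjusted p under 0.05 over all genes), 1 higher and 3 lower, where 1.81% of all 16421 genes tested passed (0.371% higher, 1.44% lower). The libraries did not overlap in 10 members, 2 higher and 8 lower, against 7.86% of all genes tested (2.83% higher, 5.03% lower), and the median log2 fold change of the members was -0.147, against 0.00896 for all genes tested. Adamts13, Mmp21 and Mmp25 had too few counts for the test.

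**Figure D2:**
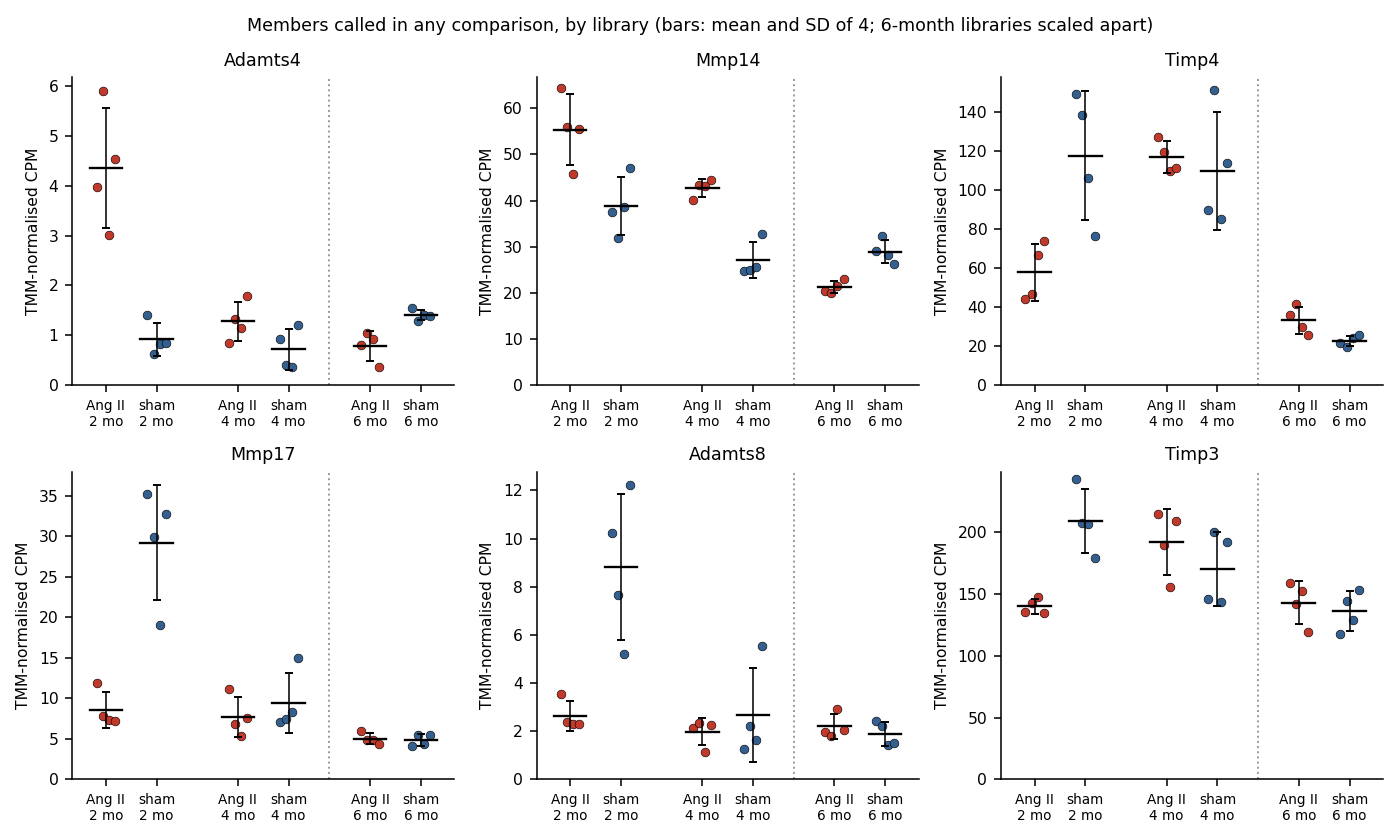
TMM-normalised CPM of the 6 members called in any Ang II comparison, one point per library, Ang II in red and left of sham in blue at 2, 4 and 6 months (bars, mean and SD of 4; 6-month libraries scaled apart). The groups of Adamts4, Timp4, Mmp17, Adamts8 and Timp3 do not overlap at 2 months, and those of Mmp14 do not overlap at 4 and 6 months, in opposite directions. Those of Adamts4 and Timp4 do not overlap at 6 months either, each in the direction opposite to 2 months.

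Adamts4 (ENSMUSG00000006403.13, chromosome 1, 171250421 to 171260637, plus strand, mm10) stood at 3.97, 5.89, 3.02 and 4.52 CPM in Ang II aortas at 2 months, against 1.40, 0.632, 0.833 and 0.837 CPM in sham aortas. Every Ang II library exceeded every sham library, and the lowest Ang II value was above the highest sham value by more than the whole sham range. The log2 fold change was 2.24 (SE 0.33, edgeR adjusted p = 0.0141). The call was lost without Ang II replicate 4 (adjusted p = 0.0547) and without the 3 airway-rich libraries (log2 fold change 1.95, edgeR adjusted p = 0.176). Immediate early transcripts were summed (14 of 14 listed present). The sums were 2156, 1445, 870.1 and 961 CPM in Ang II and 409, 618, 430 and 550.2 CPM in sham libraries. Nr4a1 did not overlap, at 214 to 499 CPM in Ang II and 28.6 to 59.3 CPM in sham libraries. Nr4a2, Atf3, Jun, Klf2 and Klf4 were also higher without overlap. The groups overlapped in the other listed genes, Fos and Egr1 among them. Egr1 stood at 19.8 to 466 CPM in Ang II and 26.4 to 91.5 CPM in sham libraries. The part of immediate early transcripts in the Adamts4 difference was not tested.

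The other proteoglycan-cleaving members did not move as one. Adamts8 (ENSMUSG00000031994.13, chromosome 9, 30942562 to 30963838, plus strand) stood at 3.56, 2.38, 2.29 and 2.31 CPM in Ang II aortas, against 10.2, 7.67, 5.204 and 12.2 CPM in sham aortas. Its groups did not overlap, and the highest Ang II library, replicate 1, lay below the lowest sham library, replicate 3. The log2 fold change was -1.74 (SE 0.30, edgeR adjusted p = 0.0245), and the call was lost without sham replicate 1 or 4 or without Ang II replicate 2, 3 or 4 (adjusted p 0.0538 to 0.0993). An exon of the predicted gene Gm29724 on the other strand shares 10.6% of its exon bases. Adamts15, a versican-cleaving protease whose gene lies 20.1 kb from Adamts8 on chromosome 9, stood at 14.1, 9.90, 7.81 and 13.9 CPM in Ang II aortas, against 23.2, 19.4, 15.99 and 19.7 CPM in sham aortas. The groups did not overlap, but the difference did not pass (edgeR log2 fold change -0.77 ± 0.21, adjusted p = 0.137). Adamts1, which cleaves versican, stood at 51.2, 67.3, 58.2 and 67.7 CPM in Ang II aortas, against 49.5, 53.1, 37.1 and 36.7 CPM in sham aortas. In Adamts1, 3 of 4 Ang II libraries lay above every sham library (edgeR log2 fold change 0.47 ± 0.15, adjusted p = 0.235). Adamts5, the main aggrecan-cleaving enzyme of mouse cartilage, stood at 46.4, 44.7, 53.6 and 52.7 CPM in Ang II aortas, against 41.5, 37.7, 46.4 and 35.0 CPM in sham aortas, and Adamts5 did not pass either (log2 fold change 0.30, edgeR adjusted p = 0.332). Over the 7 members of this group, 1 passed higher and 1 lower, and the median log2 fold change was 0.103.

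Of the membrane-type members, Mmp17 and Mmp14 lay on opposite sides of sham. Mmp17 (ENSMUSG00000029436.9, chromosome 5, 129584169 to 129611099, plus strand), a protease tied to the cell surface by a lipid anchor and made by smooth muscle cells of the mouse aorta, stood at 11.9, 7.84, 7.34 and 7.17 CPM in Ang II aortas, against 35.2, 29.9, 19.0 and 32.8 CPM in sham aortas. The groups did not overlap, with the highest Ang II library below the lowest sham library. The log2 fold change was -1.76 (SE 0.24, edgeR adjusted p = 0.0106), and this call was kept when any 1 of the 8 libraries was left out (adjusted p 0.0068 to 0.0488) and in each other setting tried. Mmp14 (ENSMUSG00000000957.11, chromosome 14, 54431612 to 54445364, plus strand), which cuts fibrillar collagen at the cell surface and activates pro-Mmp2, stood at 64.5, 55.9, 45.9 and 55.4 CPM in Ang II aortas, against 37.4, 31.9, 38.7 and 47.1 CPM in sham aortas. Ang II replicate 3 lay below sham replicate 4, and the other 3 Ang II libraries lay above all sham libraries. Mmp14 did not pass at 2 months (edgeR log2 fold change 0.52 ± 0.14, adjusted p = 0.164). The remaining membrane-type members tested, Mmp15, Mmp16 and Mmp24, had log2 fold changes between -0.57 and 0.09, and none passed.

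Summed contractile smooth muscle transcripts were lower in Ang II aortas at 2 months, as Mmp17, Adamts8 and Timp3 were. The 10 listed markers were all present and summed to 2208, 1339, 1531 and 1138 CPM in Ang II aortas, against 6606, 5175, 4314 and 8018 CPM in sham aortas at 2 months, without overlap. Des alone of the 10 overlapped, at 190 to 730 CPM in Ang II and 185 to 418 CPM in sham aortas. Macrophage markers (10 of 10 present) summed to 651 to 1102 CPM in Ang II and 382 to 689 CPM in sham aortas. Lyz2, the largest part of that sum, overlapped, as did Csf1r, Mrc1 and Cd163. Cd68 was higher without overlap, at 27.2 to 39 CPM in Ang II and 8.08 to 18.6 CPM in sham aortas, as were Adgre1, Trem2, Ms4a7, C1qa and C1qb. Fibroblast markers (10 of 10 present) summed to 5109 to 5881 CPM in Ang II and 3317 to 6011 CPM in sham aortas. Gsn made up most of that sum and overlapped. Mfap5 alone of the fibroblast markers did not overlap, at 27.9 to 31.2 CPM in Ang II and 43.3 to 82.2 CPM in sham aortas. No listed marker of these 3 sets was at 0 in any library. The part of these transcripts in the members' differences was not tested.

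**Figure D3:**
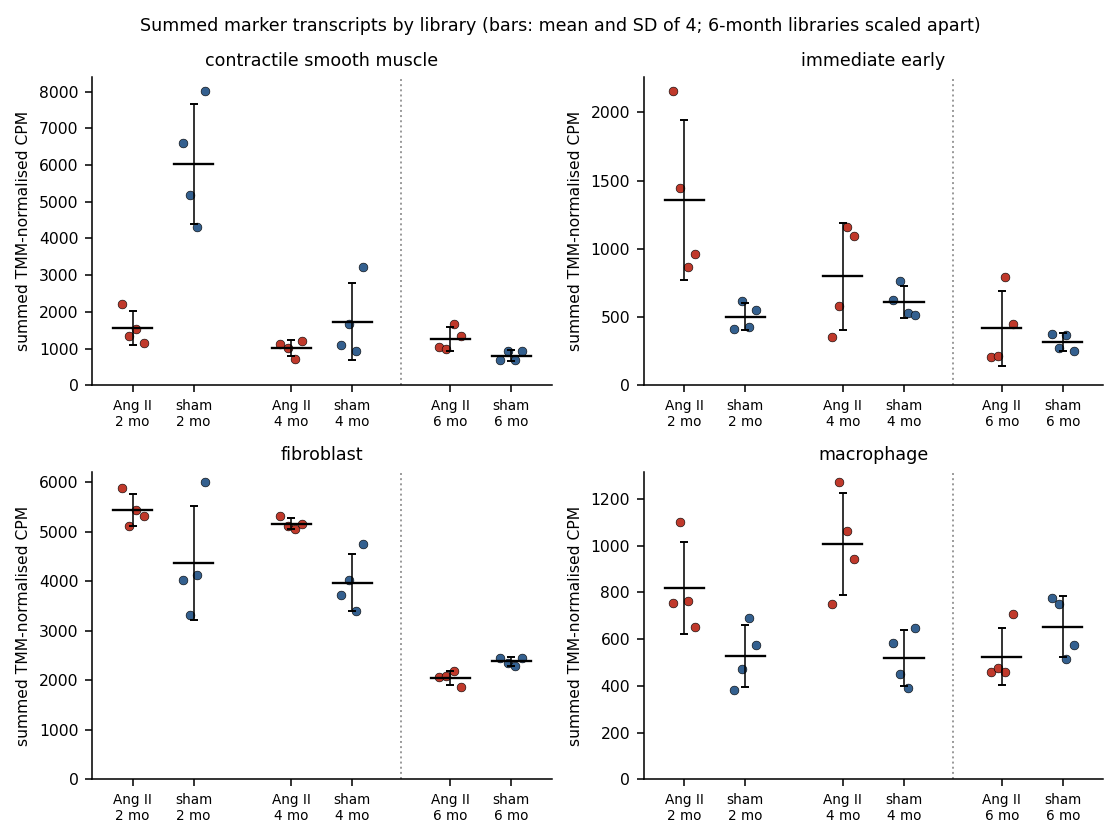
Summed TMM-normalised CPM of the contractile smooth muscle, immediate early, fibroblast and macrophage lists, one point per library, Ang II in red and left of sham in blue (bars, mean and SD of 4; 6-month libraries scaled apart). Contractile sums of sham aortas at 2 months, 4314 to 8018 CPM, lie above those of the other groups at 2 and 4 months. Fibroblast sums of Ang II aortas at 4 months, 5061 to 5329 CPM, lie above sham. Those sums at 4 months are mostly Gsn, the only listed fibroblast marker whose groups do not overlap there.

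Of the inhibitors, Timp3 was lower in Ang II aortas at 2 months and the other 3 did not pass. Timp3 (ENSMUSG00000020044.13, chromosome 10, 86300372 to 86349506, plus strand) stood at 135, 143, 148 and 135 CPM in Ang II aortas, against 243, 208, 207 and 179 CPM in sham aortas. The Ang II libraries lay close together and all below the lowest sham library, replicate 4. The log2 fold change was -0.58 (SE 0.10, edgeR adjusted p = 0.0304). The call was lost when any 1 library other than sham replicate 4 was left out (adjusted p 0.0799 to 0.106) and without the 3 airway-rich libraries (edgeR adjusted p = 0.359), although the log2 fold change stayed between -0.64 and -0.51 on leaving out 1 library. Exons of Syn3, a synapsin gene on the other strand, cover 21.3% of the Timp3 exon bases, and Syn3 itself had 0.551 to 1.45 CPM in Ang II and 0.936 to 1.19 CPM in sham aortas.

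Timp4 (ENSMUSG00000030317.8, chromosome 6, 115241892 to 115252205, minus strand) stood at 44.4, 47.0, 66.6 and 74.2 CPM in Ang II aortas at 2 months, against 149.5, 138.5, 106 and 76.5 CPM in sham aortas. The groups did not overlap, though the highest Ang II and the lowest sham library, both replicate 4, were close. The log2 fold change of Timp4 was -1.02 (SE 0.24) and did not pass (edgeR adjusted p = 0.0840). Timp2 stood at 355, 356, 320 and 303 CPM in Ang II aortas and 334, 305, 341 and 424 CPM in sham aortas, and Timp1, the inhibitor most often induced by inflammatory signals, at 4.00, 3.02, 2.603 and 3.54 CPM in Ang II and 3.43, 2.06, 2.29 and 6.85 CPM in sham aortas. In both the groups overlapped, with log2 fold changes of -0.07 for Timp2 and -0.15 for Timp1. All 4 inhibitors had a log2 fold change below 0, with a median of -0.362, and 1 of 4 passed; Timp1 and Timp2 changed sign under 3 and 1 of 15 other settings.

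Among secreted MMPs nothing passed at 2 months. Mmp2 stood at 69.9, 74.9, 60.6 and 58.7 CPM in Ang II aortas and 59.4, 54.6, 62.3 and 65.5 CPM in sham aortas (log2 fold change 0.13, which changed sign in 1 of 15 other settings). Mmp9, gelatinase B of neutrophils and macrophages, stood at 16.9, 18.1, 16.1 and 13.8 CPM in Ang II aortas and 9.84, 8.05, 11.3 and 20.4 CPM in sham aortas (log2 fold change 0.39). In both the groups overlapped, in Mmp9 through sham replicate 4 alone. Mmp12, the macrophage elastase, stood at 0.735, 2.25, 2.97 and 2.82 CPM in Ang II aortas and 1.82, 1.69, 0.791 and 0.887 CPM in sham aortas (log2 fold change 0.75).

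In 2 further secreted MMPs single libraries stood far above the rest at 2 months. Mmp3, or stromelysin-1, which cuts proteoglycans and activates other proenzymes, stood at 18.4, 9.70, 8.64 and 10.1 CPM in Ang II aortas, against 6.70, 5.69, 6.25 and 34.3 CPM in sham aortas. All Ang II libraries of Mmp3 lay above 3 of the 4 sham libraries and below sham replicate 4. Its log2 fold change was -0.17 with all libraries and reached 0.92 in the setting with the highest value; its direction differed between settings. Mmp19, a secreted protease of basement membrane proteins, stood at 39.4, 16.7, 20.3 and 20.4 CPM in Ang II aortas and 18.4, 15.9, 17.0 and 46.5 CPM in sham aortas, again with 1 high library in each group, Ang II replicate 1 and sham replicate 4.

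Mmp23, a protease anchored in the membrane until it is cut free, stood at 20.8, 17.4, 17.3 and 14.6 CPM in Ang II aortas, against 29.3, 24.4, 23.2 and 37.0 CPM in sham aortas. The Mmp23 groups did not overlap, but the test did not pass (edgeR log2 fold change -0.69 ± 0.17, adjusted p = 0.108). The further secreted members, Mmp11, Mmp27 and Mmp28, had log2 fold changes of -0.15, -0.03 and 0.34, and the collagenase gene Mmp13 one of -1.05, and none passed.

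Members that bind or build matrix fibrils did not pass at 2 months. Adamtsl5, which binds fibrillin microfibrils, stood at 22.5, 19.2, 23.3 and 18.7 CPM in Ang II aortas, against 32.9, 24.6, 33.6 and 36.7 CPM in sham aortas. Adamtsl3, another ADAMTS-like matrix protein, stood at 16.6, 18.5, 14.1 and 16.9 CPM in Ang II aortas, against 30.02, 18.6, 19.4 and 22.0 CPM in sham aortas. In both genes the groups did not overlap, in Adamtsl3 by a small margin, and neither passed (log2 fold change -0.61 and edgeR adjusted p = 0.0810 for Adamtsl5, -0.44 and 0.350 for Adamtsl3). Adamts2, which removes the amino-terminal propeptide of fibrillar procollagens, stood at 52.6, 37.0, 39.9 and 35.1 CPM in Ang II aortas and 54.4, 37.8, 45.2 and 65.2 CPM in sham aortas (log2 fold change -0.30). Adamtsl2, which binds fibrillin-1 and the latent TGF-beta binding protein Ltbp1, stood at 1.58, 2.67, 2.08 and 1.66 CPM in Ang II aortas and 2.12, 2.44, 3.50 and 2.27 CPM in sham aortas (log2 fold change -0.36). Both groups of Adamts2 and of Adamtsl2 overlapped. Adamts16, a gene linked to blood pressure in rats, stood at 0.771, 0.767, 0.729 and 0.598 CPM in Ang II aortas, against 0.424, 0.126, 0.500 and 0.296 CPM in sham aortas. All Ang II libraries of Adamts16 lay above all sham libraries, and the difference did not pass (edgeR log2 fold change 1.08 ± 0.40, adjusted p = 0.344).

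**Figure D4:**
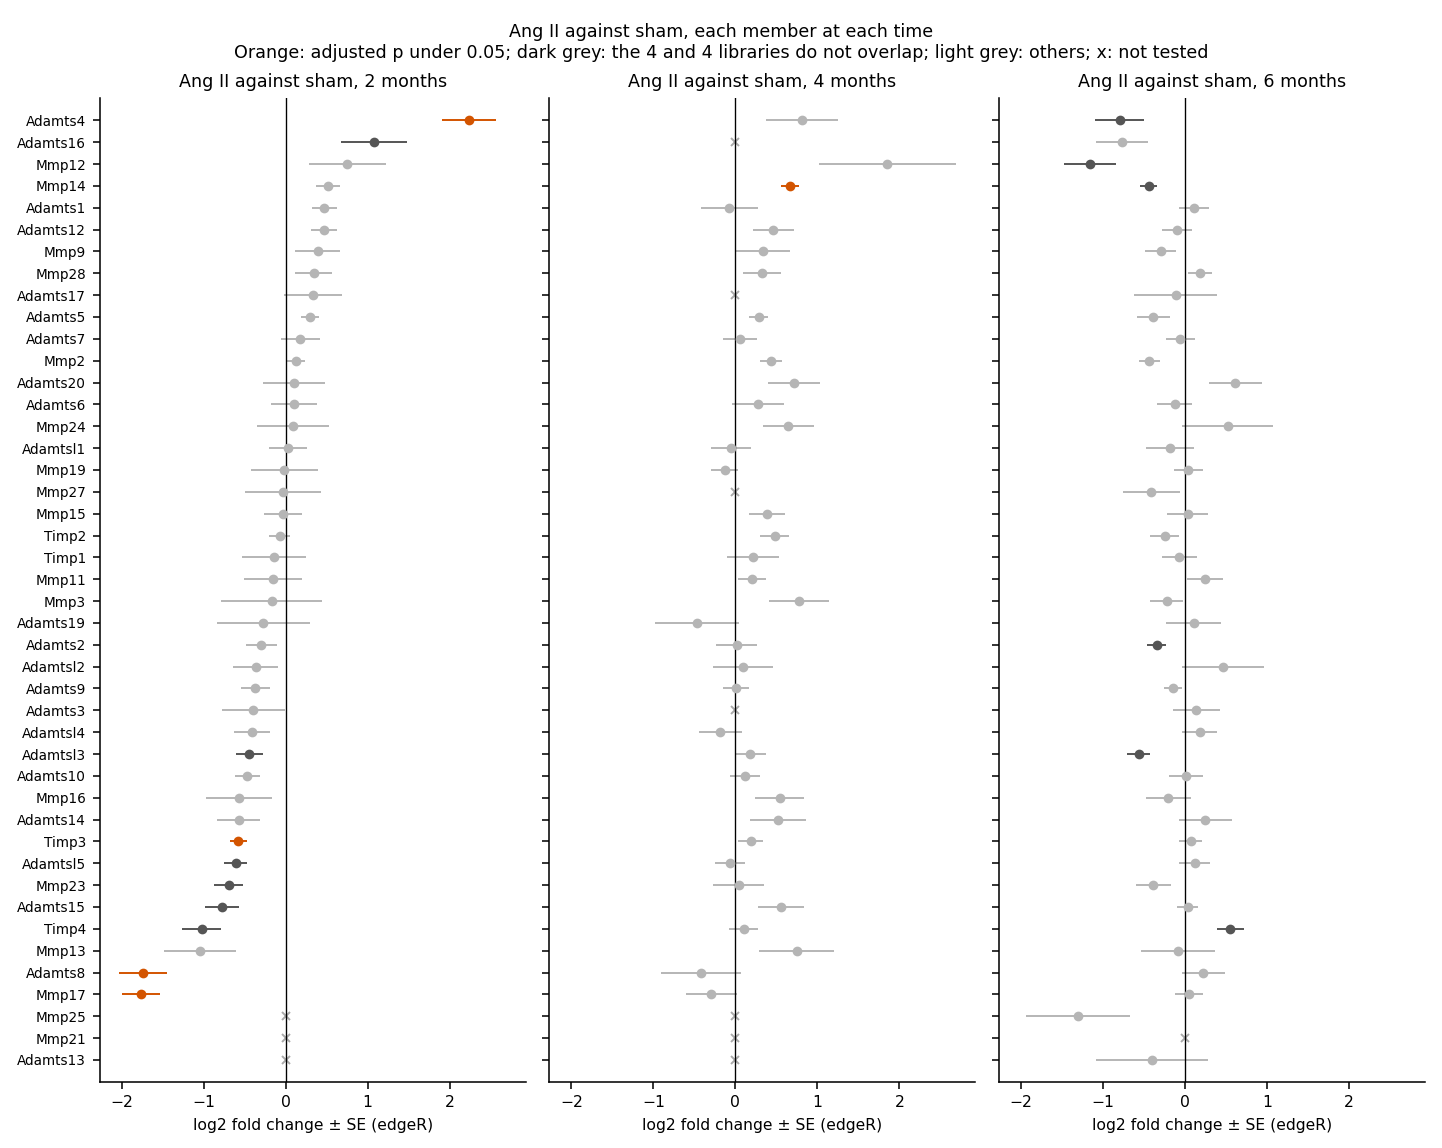
Log2 fold change of Ang II against sham (x axis, ± SE, edgeR) for each member (y axis, ordered by the value at 2 months) at 2, 4 and 6 months. Orange points passed an adjusted p of 0.05 (4, 1 and 0 members), dark grey points did not pass but their libraries do not overlap, and crosses mark members not tested.

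At 4 months Mmp14 alone passed. Mmp14 stood at 40.1, 43.3, 43.1 and 44.6 CPM in Ang II aortas, against 24.7, 25.04, 25.7 and 32.9 CPM in sham aortas. The 4 Ang II libraries lay within a narrow range above every sham library, of which replicate 4 was the highest. Mmp14 was 1.59-fold higher (edgeR log2 fold change 0.67 ± 0.11, adjusted p = 0.0443). It was the 1 of 37 members tested that passed, where 0.707% of all 16127 genes tested passed (0.143% higher), and the 1 member whose libraries did not overlap, where 9.98% of all genes tested did not overlap (3.58% higher, 6.41% lower). The call was lost when any 1 library other than sham replicate 4 was left out (adjusted p 0.0989 to 0.165) and without the 3 airway-rich libraries of 4 months (log2 fold change 0.58, edgeR adjusted p = 0.97; 0 of all genes then passed). Without sham replicate 4, 3 members passed edgeR, Mmp14 (adjusted p = 0.00656), Mmp3 and Timp2, as did 674 of all 16477 genes tested. Fibroblast markers summed to 5061 to 5329 CPM in Ang II and 3398 to 4751 CPM in sham aortas at 4 months. Gsn made up most of that sum, at 3820 to 4080 CPM in Ang II and 2470 to 3420 CPM in sham aortas. In all other listed fibroblast markers the groups overlapped. Macrophage markers summed to 750.4 to 1273 CPM in Ang II and 391 to 650 CPM in sham aortas. Both lists had 10 of 10 markers present and none at 0, and the part of these markers in the Mmp14 difference was not tested.

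The members that had passed at 2 months did not pass at 4 months. Mmp17 stood at 11.1, 6.82, 5.30 and 7.62 CPM in Ang II aortas and 7.09, 7.43, 8.35 and 14.98 CPM in sham aortas (log2 fold change -0.29 ± 0.31). Adamts4 stood at 0.851, 1.34, 1.15 and 1.78 CPM in Ang II aortas and 0.926, 0.400, 0.357 and 1.21 CPM in sham aortas (log2 fold change 0.81 ± 0.44). Adamts8 stood at 2.15, 2.36, 1.15 and 2.28 CPM in Ang II aortas and 1.25, 2.23, 1.63 and 5.54 CPM in sham aortas (log2 fold change -0.42). The sign of the log2 fold change turned in 2 of 15 other settings for Adamts8 and in 1 of 15 for Mmp17. In Mmp17, Adamts4 and Adamts8 the groups overlapped, and sham replicate 4 was the highest sham library. That library also had the highest contractile marker sum of its group, 3226 CPM, against 942.8 to 1656 CPM in the other 3 sham libraries at 4 months.

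No inhibitor passed at 4 months. Timp3 stood at 215, 189.6, 156 and 209 CPM in Ang II aortas and 146, 200.1, 143.5 and 192 CPM in sham aortas (log2 fold change 0.19). Timp4 stood at 128, 119, 110.1 and 112 CPM in Ang II aortas and 89.8, 151, 85.1 and 114 CPM in sham aortas (log2 fold change 0.10, which changed sign in 1 of 15 other settings). Both sets of libraries overlapped. Timp2 stood at 350, 357, 290.1 and 326 CPM in Ang II aortas and 218, 189.9, 212 and 335 CPM in sham aortas (edgeR log2 fold change 0.48 ± 0.18, adjusted p = 0.248), with 2 Ang II libraries above all sham libraries. Mmp2 stood at 68.2, 62.2, 47.7 and 53.9 CPM in Ang II aortas and 36.6, 44.9, 41.2 and 50.4 CPM in sham aortas (edgeR log2 fold change 0.43 ± 0.14, adjusted p = 0.180), with 3 of 4 Ang II libraries above all sham libraries. Of the 37 members tested, 29 had a log2 fold change above 0 (median 0.217), against 9192 of all 16127 genes tested (median 0.0439). Adamts3, Adamts13, Adamts16, Adamts17, Mmp21, Mmp25 and Mmp27 had too few counts.

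Mmp12 and Mmp3 varied between libraries at 4 months. Mmp12 stood at 13.3, 2.45, 2.77 and 1.48 CPM in Ang II aortas and 3.34, 0.972, 0.509 and 0.683 CPM in sham aortas, with replicate 1 far above the rest in each group (edgeR log2 fold change 1.85 ± 0.84, adjusted p = 0.335). Mmp3 stood at 9.61, 12.4, 9.86 and 10.3 CPM in Ang II aortas and 4.22, 3.83, 4.74 and 11.9 CPM in sham aortas. As at 2 months, the Ang II libraries of Mmp3 lay above 3 sham libraries, and sham replicate 4 stood among them (edgeR log2 fold change 0.78 ± 0.36, adjusted p = 0.351).

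The remaining members described library by library at 2 months did not pass at 4 months, Adamts16 being too low there for the test. Mmp9 ranged from 7.05 to 15.7 CPM in Ang II and 5.55 to 12.5 CPM in sham aortas, Mmp19 from 14.4 to 17.5 in Ang II and 13.9 to 23.6 in sham aortas, and Mmp23 from 11.2 to 14.2 in Ang II and 7.95 to 22.8 in sham aortas. Adamts1 ranged from 17.9 to 41.2 CPM in Ang II and 20.3 to 42.3 CPM in sham aortas, Adamts5 from 39.9 to 49.6 in Ang II and 29.95 to 41.1 in sham aortas, and Adamts2 from 24.9 to 34.3 in Ang II and 20.4 to 45.3 in sham aortas. Adamts15 ranged from 5.35 to 10.4 CPM in Ang II and 4.02 to 7.95 CPM in sham aortas, Adamtsl3 from 12.5 to 18.6 in Ang II and 10.95 to 18.4 in sham aortas, Adamtsl5 from 16.8 to 19.3 in Ang II and 13.3 to 25.02 in sham aortas, and Timp1 from 1.73 to 2.90 in Ang II and 1.17 to 3.09 in sham aortas. Adamtsl2 ranged from 1.11 to 1.75 CPM in Ang II and 0.713 to 2.29 CPM in sham aortas, and Adamts16 from 0.100 to 0.742 in Ang II and 0.102 to 0.281 in sham aortas. Every one of these pairs of groups overlapped.

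Taken over 2 and 4 months with time as a block, Mmp14 and Adamts4 were higher in Ang II aortas. The average log2 fold change of Mmp14 was 0.59 (SE 0.09, edgeR adjusted p = 0.0053), a 1.5-fold rise, and that of Adamts4 was 1.54 (SE 0.33, edgeR adjusted p = 0.0388), a 2.91-fold rise. These were 2 of 41 members tested, where 0.915% of all 17153 genes tested passed (0.507% higher, 0.408% lower). The Mmp14 call was kept on leaving out any 1 of the 16 libraries, and lost without the 3 airway-rich libraries of 2 months (log2 fold change 0.56, edgeR adjusted p = 0.081). The Adamts4 call was also lost without those 3 libraries (log2 fold change 1.28, edgeR adjusted p = 0.228), and it was kept in only 3 of the 16 refits without 1 library, those without sham replicate 1 or 4 or Ang II replicate 1 of 4 months. Mmp17 averaged a log2 fold change of -1.04 and Adamts8 one of -1.10, and neither passed (edgeR adjusted p = 0.0857 and 0.133).

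The Ang II effect of some members differed between times, but 6 months cannot be told apart from its kind of library. Libraries of 6 months differed from the earlier ones in depth and mitochondrial share, and all 24 libraries were scaled and fitted together here. A test of the interaction over the 3 times, each effect taken within its own time, passed for 4 of 42 members, where 0.536% of all 19218 genes tested passed. They were Mmp14 (edgeR adjusted p = 0.0077), Adamts4 (0.0237), Mmp17 (0.0284) and Timp4 (0.0284). Mmp14 had log2 fold changes of 0.52, 0.67 and -0.44 at 2, 4 and 6 months, Adamts4 of 2.24, 0.81 and -0.80, Mmp17 of -1.76, -0.29 and 0.04, and Timp4 of -1.02, 0.10 and 0.55. The Mmp14 call was kept on leaving out any 1 of 24 libraries. The Adamts4 call was lost without Ang II replicate 3 of 6 months (edgeR adjusted p = 0.0516), and those of Mmp17 and Timp4 were lost in 11 and 10 of the 24 refits. Without the 3 airway-rich libraries 1 of the 4 passed.

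Between 2 and 4 months alone, 0 of 41 members and 0% of all genes tested passed edgeR's test of the difference between the Ang II effects, while 1813 genes had an unadjusted p under 0.05, and DESeq2 and limma voom called 185 and 467. The members nearest to passing were Timp3 (difference of log2 fold changes 0.75, SE 0.19, edgeR adjusted p = 0.216), Adamts15 (1.32, 0.256), Mmp17 (1.47, 0.256) and Timp4 (1.11, 0.266), the 4 that DESeq2 and limma voom did call.

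At 6 months no member passed. Of 43 members tested 0 passed edgeR, as did 0% of all 19343 genes tested. Unadjusted p was under 0.05 for 976 genes (5.05%) and 8 members, and DESeq2 called 64 genes and 0 members. The libraries did not overlap in 6 members, 5 lower and 1 higher in Ang II aortas, against 3.13% of all genes tested (1.72% lower, 1.41% higher). Mmp14 stood at 20.4, 20.06, 21.6 and 22.97 CPM in Ang II aortas, against 29.0, 32.3, 28.2 and 26.2 CPM in sham aortas, so that every Ang II library lay below every sham library (edgeR log2 fold change -0.44 ± 0.10, adjusted p = 0.922). Adamts4 stood at 0.813, 1.06, 0.918 and 0.368 CPM in Ang II aortas, against 1.54, 1.28, 1.41 and 1.39 CPM in sham aortas (edgeR log2 fold change -0.80 ± 0.30, adjusted p = 0.926). Timp4 stood at 36.1, 41.4, 29.8 and 25.9 CPM in Ang II aortas, against 21.4, 19.6, 24.02 and 25.9 CPM in sham aortas, with Ang II replicate 4 just above the highest sham library (edgeR log2 fold change 0.55 ± 0.16, adjusted p = 0.922).

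The other 3 members whose libraries were apart at 6 months were lower in Ang II aortas. Adamtsl3 ranged from 19.5 to 30.5 CPM in Ang II and 33.04 to 39.99 CPM in sham aortas (log2 fold change -0.57), Mmp12 from 0.279 to 0.420 in Ang II and 0.579 to 1.17 in sham aortas (-1.16), and Adamts2 from 33.2 to 42.2 in Ang II and 42.7 to 55.6 in sham aortas (-0.35). None passed. Mmp17 and Adamts8 overlapped with sham: Mmp17 ranged from 4.36 to 5.95 CPM in Ang II and 4.09 to 5.52 CPM in sham aortas, and Adamts8 from 1.82 to 2.93 in Ang II and 1.43 to 2.42 in sham aortas. Timp3 ranged from 119 to 159 CPM in Ang II and 118 to 154 CPM in sham aortas, Timp2 from 222 to 265 in Ang II and 245.7 to 396 in sham aortas, and Mmp2 from 29.4 to 37.9 in Ang II and 37.1 to 49.2 in sham aortas, with overlap in each. Fibroblast markers (10 of 10 present) summed to 1857 to 2183 CPM in Ang II and 2285 to 2458 CPM in sham aortas at 6 months. Of them only Col14a1 and Pi16 did not overlap, both lower in Ang II aortas. Contractile markers summed to 987.7 to 1675 CPM in Ang II and 680 to 930.6 CPM in sham aortas. Among these only Mylk and Lmod1 did not overlap, and Des ranged from 103 to 758 CPM in Ang II and 79 to 132 CPM in sham aortas. Skeletal muscle markers (8 of 8 present) summed to 469.6 to 6565 CPM in Ang II and 28.5 to 466 CPM in sham aortas. The part of these markers in the members' values was not tested.

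Other members also overlapped with sham at 6 months. Mmp9 ranged from 8.87 to 15.4 CPM in Ang II and 13.5 to 18.99 CPM in sham aortas, Mmp3 from 4.84 to 6.29 in Ang II and 5.39 to 9.53 in sham aortas, and Mmp19 from 12.4 to 20.2 in Ang II and 14.01 to 17.5 in sham aortas. Adamts1 ranged from 25.5 to 47.8 CPM in Ang II and 28.7 to 35.8 CPM in sham aortas, Adamts5 from 37.7 to 53.6 in Ang II and 45.8 to 81.3 in sham aortas, Adamts15 from 11.7 to 14.9 in Ang II and 11.8 to 15.2 in sham aortas, and Adamts16 from 0.606 to 1.15 in Ang II and 0.980 to 1.83 in sham aortas. The ranges of Mmp23 were 10.5 to 15.6 CPM in Ang II and 13.3 to 23.7 CPM in sham aortas, those of Adamtsl2 1.01 to 2.98 in Ang II and 0.537 to 2.21 in sham aortas, those of Adamtsl5 13.3 to 20.9 in Ang II and 13.6 to 20.8 in sham aortas, and those of Timp1 1.06 to 1.58 in Ang II and 1.18 to 1.49 in sham aortas.

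In sham aortas most members had lower levels at 4 months than at 2 months. Between sham aortas at 4 and 2 months, 36 of 39 members tested had a log2 fold change below 0, with a median of -0.561, against -0.0227 over all genes tested. The change was above 0 in 3 members and in 7537 of all 16144 genes tested. In sham and Ang II aortas alike each time was its own set of libraries, so time cannot be told apart from how these were collected. The libraries of the 2 times did not overlap in 8 members, all lower at 4 months, against 9.61% of all genes tested (3.62% higher, 6% lower). By edgeR 0 of 39 members passed, where 0.00619% of all genes tested did, although 16 members and 2549 genes had an unadjusted p under 0.05. DESeq2 called 10 members and 830 of all 16144 genes tested, and limma voom called 12 members and 801 genes. Without sham replicate 4 of 4 months edgeR called 11 members and 641 of all 16423 genes tested. Summed contractile markers were 942.8 to 3226 CPM in sham aortas at 4 months and 4314 to 8018 CPM in sham aortas at 2 months; their part was not tested.

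Adamts15 showed the smallest p of the members between the sham groups, at 5.93, 7.95, 4.02 and 6.83 CPM at 4 months against 23.2, 19.4, 15.99 and 19.7 CPM at 2 months. The groups were far apart, with the highest value at 4 months under the lowest at 2 months (edgeR log2 fold change -1.69 ± 0.21, adjusted p = 0.0829). Mmp17 in sham aortas stood at 7.09, 7.43, 8.35 and 14.98 CPM at 4 months against 35.2, 29.9, 19.0 and 32.8 CPM at 2 months (edgeR log2 fold change -1.65 ± 0.29, adjusted p = 0.0853). Thus the sham level of Mmp17 at 4 months lay in the range of 5.30 to 11.9 CPM that Ang II aortas spanned at 2 and 4 months, except for sham replicate 4. Mmp2, Adamts9, Adamts10, Adamts14, Adamtsl3 and Mmp23 were the others apart, with log2 fold changes between -1.47 and -0.52.

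Between Ang II aortas at 4 and 2 months, the libraries of Timp3 and Timp4 stood higher and those of 7 other members lower, with none past the test. The libraries did not overlap in 9 of 40 members tested, 2 higher and 7 lower at 4 months, against 6.06% of all genes tested (2.07% higher, 3.99% lower). By edgeR 0 members and 0.00611% of all genes tested passed, with 11 members and 1751 genes at an unadjusted p under 0.05. DESeq2 called 5 members and 270 of all 16367 genes tested, and limma voom called 1 member, Timp4, and 20 genes. Timp4 in Ang II aortas stood at 128, 119, 110.1 and 112 CPM at 4 months against 44.4, 47.0, 66.6 and 74.2 CPM at 2 months (edgeR log2 fold change 1.03 ± 0.16, adjusted p = 0.173). Timp3 stood at 215, 189.6, 156 and 209 CPM at 4 months against 135, 143, 148 and 135 CPM at 2 months (edgeR log2 fold change 0.47 ± 0.11, adjusted p = 0.230). Adamts4 stood at 0.851, 1.34, 1.15 and 1.78 CPM at 4 months against 3.97, 5.89, 3.02 and 4.52 CPM at 2 months (edgeR log2 fold change -1.75 ± 0.32, adjusted p = 0.184). In each of the 3 genes every library of one time lay beyond every library of the other. The further members apart were Adamts1, Adamts2, Adamts14, Adamtsl1, Mmp14 and Mmp23, with log2 fold changes from -1.05 for Adamts1 to -0.34 for Adamts14. These contrasts share libraries with those of Ang II against sham and are not independent of them.

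**Figure D5:**
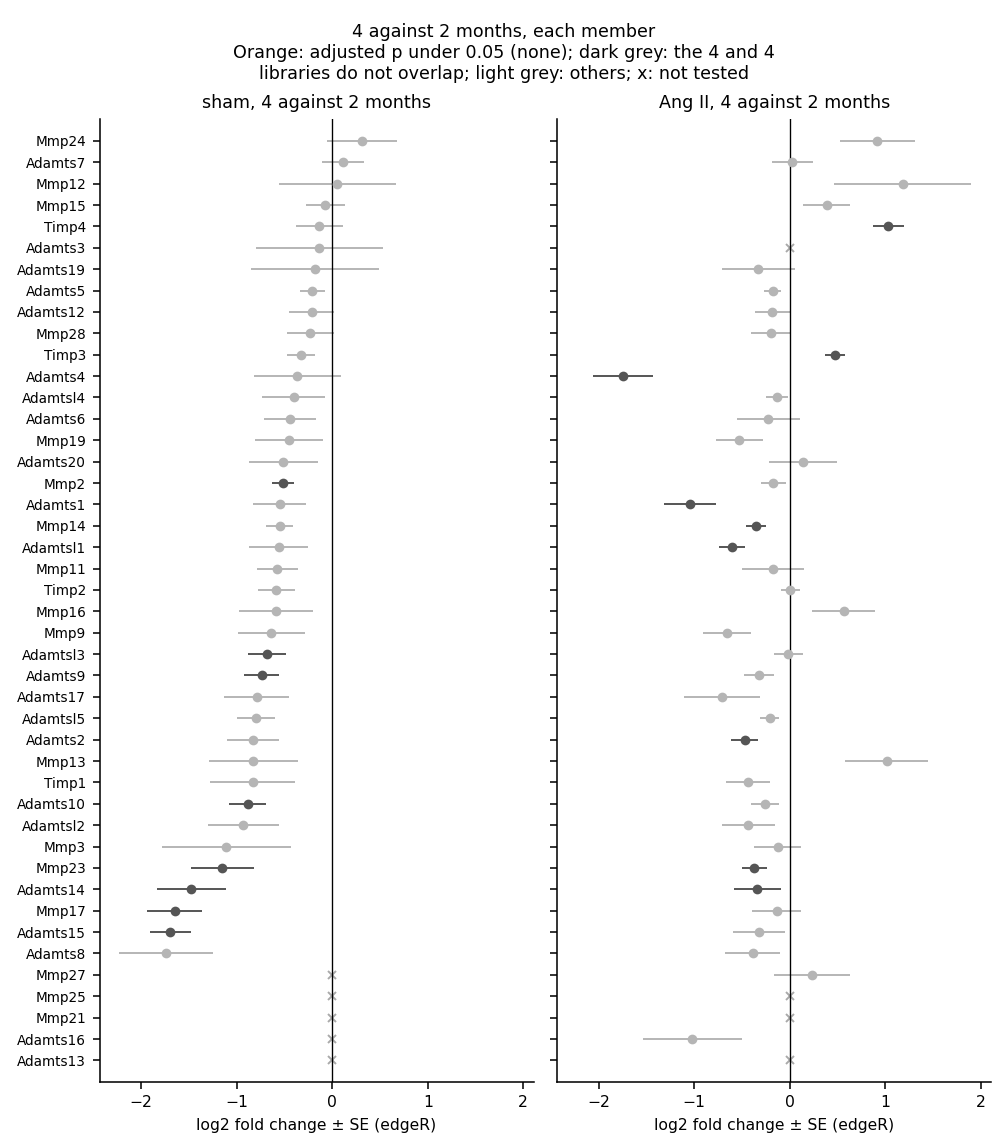
Log2 fold change of 4 against 2 months (x axis, ± SE, edgeR) for each member (y axis, ordered by the sham value), in sham aortas (left) and Ang II aortas (right). Dark grey marks members whose libraries at 4 and 2 months do not overlap, 8 in sham and 9 in Ang II aortas, crosses mark members not tested, and no member passed in either panel.

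The partners of these enzymes were read from 5 lists, to be set against the 1.81% of all genes tested that passed at 2 months. At 2 months 0 of 11 membrane ADAMs and 0 of 9 cathepsins and cystatins passed, and 2 of 10 plasminogen activators, serine proteases and serpins were lower. Those were Htra1, a secreted serine protease that cleaves fibronectin (log2 fold change -0.71, edgeR adjusted p = 0.0274), and Serpine2, a serpin that blocks thrombin and plasminogen activators (log2 fold change -0.99, edgeR adjusted p = 0.0291). Of 16 genes for activation, anchoring and clearance, 1 was lower, Pofut2, the enzyme that adds fucose to thrombospondin repeats and which ADAMTS proteins need for secretion (log2 fold change -0.57, edgeR adjusted p = 0.0264). Reck, a membrane-anchored inhibitor of MMPs on the same list, had 8.79 to 11.8 CPM in Ang II and 16 to 29.7 CPM in sham aortas, without overlap, and just missed the threshold (log2 fold change -0.995, edgeR adjusted p = 0.051).

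Of 23 substrates and binding partners in the wall, 6 were lower at 2 months and none higher, where 1.44% of all genes tested were lower. They were Eln, elastin (log2 fold change -2.79), Mfap4, a microfibril protein (-2.32), Ltbp1, which holds latent TGF-beta (-1.73), Bgn, biglycan (-1.73), Vcan, the versican that ADAMTS enzymes cleave (-1.14, SE 0.13, edgeR adjusted p = 0.00646), and Col1a2, a chain of type I collagen (-0.63). Contractile markers, at 1138 to 2208 CPM in Ang II and 4314 to 8018 CPM in sham aortas, were lower in the same libraries, and their part in these 6 differences was not tested. Over all 5 lists, with 9 to 24 genes tested in each, 0 genes passed at 4 months and 0 at 6 months. Of all genes tested, 0.707% passed at 4 months and 0% at 6 months. On average over 2 and 4 months, Ctss, the elastin-cutting cathepsin of macrophages, was higher (log2 fold change 1.07, edgeR adjusted p = 0.0305), and Pofut2 (-0.41) and Ltbp2 (-0.45) were lower. Of all genes tested, 0.507% passed higher and 0.408% lower on that average.

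The 22 members not given library by library passed at no time against sham, since every member called was given by library. Their log2 fold changes ran between -1.05 for Mmp13 and 0.47 for Adamts12, which cleaves cartilage oligomeric matrix protein, at 2 months. At 4 months they ran between -0.46 for Adamts19 and 0.75 for Mmp13, and at 6 months between -1.30 for Mmp25, a leukocyte membrane-type protease, and 0.61 for Adamts20.

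In the authors' deposited table at 2 months, 9 of the members had an adjusted p under 0.05, as had 745 of its 18740 genes: Adamts4 (log2 fold change 2.23), Mmp14 (0.51), Mmp17 (-1.78), Adamts8 (-1.75), Timp4 (-1.03), Adamts15 (-0.78), Mmp23 (-0.71), Adamtsl5 (-0.62) and Timp3 (-0.59). In the authors' deposited table at 4 months Mmp14 was the member under that threshold (log2 fold change 0.65, adjusted p = 2.56e-05), among 1028 of 18361 genes. In the authors' deposited table at 6 months 68 of 22783 genes were under it, and no member was.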

How the data were processed

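The submitters' processing notes list mm10 as the build and, without roles or versions, cutadapt, FastQC, featureCounts, STAR and DESeq2; annotation release and strand setting: not given in the sources used here. As whole numbers, the authors deposited read counts per gene, and tables of Ang II against sham with log2 fold changes, fold changes as a ratio, p-values and adjusted p-values. From the counts, edgeR 4.0.16 in R 4.3.3 was run on all genes (filterByExpr with minimum count 10 and minimum total 15, TMM, glmQLFit, glmQLFTest, Benjamini-Hochberg at 0.05). Each comparison used the libraries of its own groups: 8, 16 or 24. SE is the log2 fold change over the square root of F. CPM are TMM-scaled over the 16 libraries of 2 and 4 months and over the 8 of 6 months. Exon lengths came from GENCODE M21 by gene ID (44 matched, 41 at the same position). Alternatives were DESeq2 1.42.0, its size factors inside edgeR, dropping the low-count filter, requiring a mean count of 5 or more, limma 3.58.1 voom with quality weights, replicate numbers as a block, and leaving out airway-rich libraries or each library in turn; leaving out the 3 airway-rich libraries of 4 months was chosen after seeing the data. Scripts were tested on simulated data. Replicate libraries differed by far more than counting noise (lowest chi-square per gene 26.44). Values in every library were given for members called in any comparison, for 15 listed members, and for those whose groups did not overlap at 2 or 4 months, 22 in all; some of their libraries at 4 or 6 months are given by range. Members and lists were chosen with earlier results of these data known. Alternatives to the strand setting could not be tried, so members that share exons with another gene are uncertain by that share.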

Additional observations from a re-analysis of the deposited data

Results flagged for a closer look

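The 22 named members gave 132 groups of 4 libraries, in 17 of which 1 library stood apart from the other 3 by more than Dixon's 95% critical value; chance gives about 5%. In Ang II aortas at 2 months replicate 1 was high for Adamts8 (3.56 CPM, others 2.29 to 2.38), Mmp17 (11.9, others 7.17 to 7.84), Mmp19 (39.4, others 16.7 to 20.4) and Mmp3 (18.4, others 8.64 to 10.1). In sham aortas at 2 months replicate 4 was high for Mmp19 (46.5 CPM, others 15.9 to 18.4) and Mmp3 (34.3, others 5.69 to 6.70).

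In Ang II aortas at 4 months Mmp12 was high in replicate 1 (13.3 CPM, others 1.48 to 2.77), Adamts15 low in replicate 3 (5.35, others 9.96 to 10.4) and Mmp23 low in replicate 4 (11.2, others 13.8 to 14.2). In sham aortas at 4 months replicate 4 was high for Mmp14 (32.9 CPM, others 24.7 to 25.7), Mmp17 (14.98, others 7.09 to 8.35) and Mmp3 (11.9, others 3.83 to 4.74), and replicate 1 for Mmp12 (3.34, others 0.509 to 0.972).

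In Ang II aortas at 6 months Adamts16 was high in replicate 1 (1.15 CPM, others 0.606 to 0.631) and Mmp3 low in replicate 4 (4.84, others 6.203 to 6.29). In sham aortas at 6 months Adamtsl5 was high in replicate 1 (20.8 CPM, others 13.6 to 14.8) and Mmp12 in replicate 2 (1.17, others 0.579 to 0.664).

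The Ang II effects at the 3 times differed by edgeR's interaction test for Adamts4 (adjusted p = 0.0237), Mmp14 (0.0077), Mmp17 (0.0284) and Timp4 (0.0284).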

How the results depend on the processing

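With DESeq2, the members called were 9 at 2 months (4 in the report), 5 on average (2), 4 for the effect at 4 against 2 months (0), 8 for the interaction (4), 10 in sham (0) and 5 in Ang II aortas (0) at 4 against 2 months. With limma voom they were 7 at 2 months, 2 at 4 months (1), 4, 9, 12 and 1 for the last 4 of these, in the same order. Without a low-count filter 0 were called at 4 months, 1 on average and 1 in sham over time, and with a mean count of at least 5, 0 at 4 months. Without airway-rich libraries 2 were called at 2 months, 0 at 4 months, 0 on average and 1 for the interaction. Leaving out 1 library gave 1 to 4 members (2 months), 0 to 3 (4 months), 0 (6 months), 1 to 3 on average, 0 to 1 for the difference of effects, 1 to 7 for the interaction, 0 to 11 in sham and 0 in Ang II aortas over time. In the comparison in which it was called, no member changed sign in any setting tried; of uncalled values, Mmp17 at 6 months did so in 3 of 14.

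Replicate numbers did not pair the libraries: same-number correlations of Ang II and sham deviations lay between -0.203 and 0.563 (2 months), -0.23 and 0.277 (4 months), and -0.296 and 0.536 (6 months). With the numbers as a replicate block 2 members were called at 2 months, 0 at 4 months, 1 on average, 0 for the interaction and 2 in sham over time.

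Genes called over the whole table were 727 by DESeq2, 629 by limma voom and 119 without the airway-rich libraries at 2 months (297 in the report), and 993, 602, 40 without a filter, 68 with a mean count of at least 5 and 0 with the block or without the airway-rich libraries at 4 months (114). For the average they were 703, 427, 41 with the block and 16 without the airway-rich libraries (157), and for the interaction 545, 787, 1 with the block and 14 without those libraries (103). At 6 months DESeq2 called 64 genes (0), for the difference of effects it called 185 and limma voom 467 (0), in sham over time 830 and 801, with 140 under the block and 4 without a filter (1), and in Ang II aortas over time 270 and 20, with 3 without a filter (1). Leaving out 1 library gave between 78 and 255 genes (2 months), 0 and 674 (4 months), 69 and 232 (average), 0 and 128 (difference of effects), 34 and 308 (interaction) and 0 and 641 (sham over time). The highest counts at 4 months and in sham over time, like the 11 members there, came without sham replicate 4 of 4 months. The cause of these shifts was not tested. Members under about 1 CPM rest on few counts, and their differences are least certain.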
